A study of Mus musculus with 64 samples.

Results

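Transcript levels in the prefrontal cortex of Tg2576 mice and of their wild-type littermates were compared while both genotypes received PF-04447943. The comparison rests on 16 of the 64 arrays of the series, 8 from Tg2576 mice and 8 from wild-type mice, chosen by their sample titles and each hybridised with RNA of a separate mouse. The strain of the mice was given as F1 hybrids of C57Bl/6 and SJL (B6SJLF1), and all were aged 4 months. All carried a minipump that released the compound under the skin for 28 days. PF-04447943 inhibits the phosphodiesterase PDE9A, which breaks down cyclic GMP, so both groups compared here share the drug and neither is untreated. Tg2576 mice over-express a human mutant amyloid precursor protein from a transgene under the control of prion protein gene sequences. Amyloid plaques appear in this line only at ages well beyond the one sampled here. The labels call the tissue prefrontal cortex and the design text calls it frontal cortex. The tissue was dissected and frozen whole, so every value is an average over all its cells, and fewer cells of a type cannot be told apart from less RNA per cell. The 8 arrays per genotype given vehicle in the same region, and the 16 arrays of hippocampus under the drug, served to show where the difference under the drug stood apart.

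The tissue label was checked against marker genes. All 11 of the markers of cortical excitatory neurons that could be named on the array lay above the level below which genes were left out, whereas 3 of 9 choroid plexus markers and 4 of 9 markers of dentate and hippocampal neurons did. All 11 meningeal markers and 6 of 8 markers of olfactory bulb neurons did so too. Markers of striatal neurons also lay above it, 9 of 9, and they varied more between arrays than any other list. Relative to the wild-type mean, their mean log2 value ran from -0.84 to 2.10 in Tg2576 arrays and from -0.95 to 1.65 in wild-type arrays. Both groups therefore held arrays with much and arrays with little striatal signal. Wild-type replicate 8 stood apart, with the highest level of olfactory bulb markers (2.00 above the wild-type mean), the highest striatal level of its group and the lowest level of cortical excitatory markers (-0.34). In Tg2576 replicate 7 the olfactory bulb markers lay at 1.30. Their part in the results below was not tested beyond leaving out each array and a covariate for the striatal minus cortical marker level. Xist lay between log2 11.62 and 12.70 on all 16 arrays, and all 9 Y-linked probe sets lay at or below 4.47. Median array intensity ran from 90.90 to 100.69, and the lowest correlation between a pair of arrays of a group was 0.966. The signal range of an array, taken as the interquartile range of its log2 values, was 3.67 ± 0.14 in Tg2576 and 3.61 ± 0.13 in wild-type arrays (SD, n = 8 each; exact permutation p = 0.47, adjusted over 3 array measures 0.642). RNA integrity was read from the 3 prime minus 5 prime difference at the control probe sets for Actb and Gapdh, which was 0.10 ± 0.06 against 0.14 ± 0.05 (SD, n = 8 each; exact permutation p = 0.13, adjusted 0.39).

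The question of this comparison was how cortex that carries the transgene differs while PDE9A is inhibited. Genes of cholesterol synthesis made up 4 of the 10 higher transcripts with the smallest p: Fdps lay 1.36-fold, Sqle 1.28-fold, Fdft1 1.27-fold and Msmo1 1.27-fold higher in Tg2576 than in wild-type mice. Several transcripts of astrocytes and of the oligodendrocyte lineage lay lower, among them Dio2 at 1.43-fold, Gpr37l1 at 1.14-fold and Olig1 at 1.16-fold lower. Gpr37l1 is in no marker list used here and was named by its p. Of 13 astrocyte markers 11 lay below 0, as 38.4% of all genes did, but Gfap lay at a log2 difference of 0.44 ± 0.26 (SE). Of 9 precursor markers 7 lay below 0. No single gene passed the test after adjustment. Of 12932 genes tested, 0 had an adjusted p under 0.05 by limma, the smallest adjusted p was 0.99, and 0 passed at 0.10. An unadjusted p under 0.05 was found for 476 genes (3.68%), where chance gives 646.6. Of these, 347 (2.68%) were higher and 129 (0.998%) lower in Tg2576 mice. With the arrays made equal in distribution by quantile normalization the split was 286 higher and 286 lower. With a term in the fit for replicate numbers 1 to 4 against 5 to 8, the count was 789, above the number that chance gives. Since no adjusted p lay below 0.99, genes were ranked and counted by their unadjusted limma p, and none of those named passed the threshold. For the genes described most fully, a two-sided exact permutation p over the 16 arrays alone is given, unadjusted, of which the smallest possible value is 0.000155. Most of these genes were named by their limma p on the same arrays. Their permutation p therefore describes the separation of the groups and adds no support to the choice.

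Over all genes the median log2 difference was 0.02. The standard error of a gene's difference had a median of 0.08, and 34 genes (0.263%) differed by more than 0.5 on the log2 scale. Differences above 0, higher in Tg2576 mice, were found for 7967 genes (61.6%). The count of higher genes depended on single arrays. It was 223 without Tg2576 replicate 3, 226 without wild-type replicate 7, 546 without Tg2576 replicate 6 and 556 without wild-type replicate 2. The count of lower genes was 202 without wild-type replicate 8.

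Neurons and glia of the adult brain make their own cholesterol, because lipoproteins of the blood do not cross the blood-brain barrier. The pathway runs from acetyl-CoA through mevalonate and farnesyl diphosphate to squalene, and from squalene through lanosterol to cholesterol. When sterols in the endoplasmic reticulum run low, the SREBP transcription factors, escorted by SCAP and held back by the INSIG proteins, move to the nucleus and switch on these enzymes together, with binding of the factors NF-Y at CCAAT boxes and Sp1 at GC boxes beside them. Astrocytes supply much of the cholesterol that neurons use, carried on apolipoprotein E.

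Of the 33 genes in 3 lists of sterol synthesis, sensing and transport, 28 were tested. In 25 of them the Tg2576 mean was higher, where 61.6% of all genes were, and 9 of 28 (32.1%) were higher with an unadjusted p under 0.05 against 2.68% of all genes, while 0 were lower. Their median log2 difference was 0.155 (all genes 0.02). These lists were drawn up with earlier results of these data known, so the counts describe the genes and are no test of the pathway. The enzymes stood above the regulators. The median was 0.17 over 7 mevalonate pathway enzymes and 0.19 over 11 enzymes from squalene to cholesterol, all 18 above 0. It was 0.04 over 10 genes of sensing, uptake and transport, of which 7 lay above 0. Among the 40 genes with the smallest p, 8 belonged to the 3 lists. The other 5 genes of the lists were not analysed here.

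Promoters of the sterol genes are shown because the enzymes are known to be switched on together, through CCAAT boxes beside sterol regulatory elements. The 300 bases below reach from 250 bases before to 50 bases after the transcript start in RefSeq (GRCm38.p6), written 5′ to 3′ on the strand of the gene. They come from chr13:119690101-119690400 (plus strand), chr8:64733529-64733828 (minus strand) and chrX:72918271-72918570 (plus strand), and capitals mark each CCAAT in either direction and each TCACNCCA, a form of the sterol regulatory element.
Hmgcs1: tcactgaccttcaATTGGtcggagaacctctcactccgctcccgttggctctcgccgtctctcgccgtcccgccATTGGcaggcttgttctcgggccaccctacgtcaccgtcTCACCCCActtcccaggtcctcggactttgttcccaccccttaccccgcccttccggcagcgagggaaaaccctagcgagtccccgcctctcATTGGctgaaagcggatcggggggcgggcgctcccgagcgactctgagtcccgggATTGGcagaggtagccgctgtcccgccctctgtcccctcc
Msmo1: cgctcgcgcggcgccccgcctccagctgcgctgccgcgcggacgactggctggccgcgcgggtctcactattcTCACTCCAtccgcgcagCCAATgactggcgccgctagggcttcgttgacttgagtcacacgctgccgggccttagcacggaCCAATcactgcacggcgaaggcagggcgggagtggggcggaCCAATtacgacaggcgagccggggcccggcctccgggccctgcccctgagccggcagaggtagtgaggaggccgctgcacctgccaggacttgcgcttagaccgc
Nsdhl: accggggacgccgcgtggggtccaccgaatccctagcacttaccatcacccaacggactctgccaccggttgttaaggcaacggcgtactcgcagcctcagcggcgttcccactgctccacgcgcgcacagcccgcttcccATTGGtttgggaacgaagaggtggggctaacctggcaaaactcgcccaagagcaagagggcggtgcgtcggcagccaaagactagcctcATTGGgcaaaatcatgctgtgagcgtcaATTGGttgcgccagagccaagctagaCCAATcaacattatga

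Hmgcs1 held 1 match to TCACNCCA and 4 to CCAAT, Msmo1 held 1 and 3, and Nsdhl held 0 and 4. Of the 28 sterol genes tested, 23 were in the promoter table, and CCAAT was present on either strand in 22 of these 23, against 41.1% of all 27025 genes in the table and 37.4% of its promoters. TCACNCCA was present in 3 of 23, against 4.97% of all genes and 4.36% of promoters. Of the 9 sterol genes with p under 0.05, 5 were in the table, all 5 with CCAAT and 2 with TCACNCCA. A match is a string of letters in this window and does not show that a factor was bound there.

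**Figure D1:**
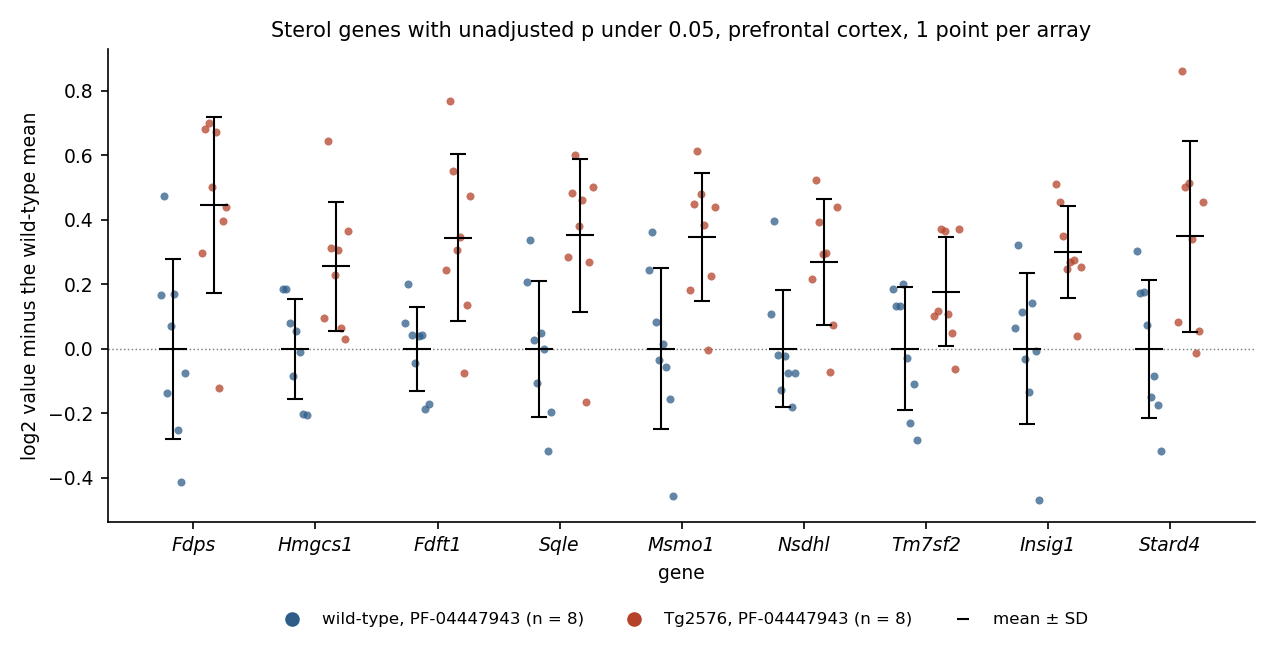
Log2 values of the 9 sterol genes with an unadjusted p under 0.05, each minus the mean of the wild-type arrays, in prefrontal cortex under PF-04447943. Points are arrays of single mice, 8 per genotype, and black marks are means with SD; the groups overlap for every gene, and the Tg2576 mean lies 0.18 (Tm7sf2) to 0.45 (Fdps) above the wild-type mean.

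In the mevalonate arm, Fdps encodes farnesyl diphosphate synthase, which builds the precursor that sterols and protein prenyl groups share. Its log2 level was 9.85 at the lowest, 10.44 at the median and 10.67 at the highest in Tg2576 mice, and 9.56, 9.97 and 10.45 in wild-type mice. Thus 4 of 8 Tg2576 arrays lay above the highest wild-type array, and the lowest Tg2576 array (replicate 6) lay within the wild-type range. The difference was 0.45 ± 0.11 (SE; exact permutation p = 0.00808). Hmgcs1, which makes HMG-CoA at the entry of the pathway, ran from 12.41 through a median of 12.65 to 13.03 in Tg2576 mice and from 12.17 through 12.40 to 12.56 in wild-type mice. All 8 Tg2576 arrays lay above the wild-type mean and 5 above the highest wild-type array, a difference of 0.26 ± 0.08 (SE; exact permutation p = 0.0109). The other 3 probe sets of Hmgcs1 above the low-signal level gave 0.29, 0.27 and 0.35.

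At the probe sets used, the other 5 mevalonate enzymes had the same sign with smaller differences. Idi1, the isopentenyl diphosphate isomerase, differed by 0.18 ± 0.12, Mvd by 0.17 ± 0.13, Pmvk by 0.17 ± 0.10 and the mevalonate kinase Mvk by 0.095 ± 0.080 (SE), with exact permutation p from 0.168 to 0.312. Ggps1 lies off the route to cholesterol and makes geranylgeranyl diphosphate for protein prenylation. It differed by 0.002 ± 0.095 (SE; exact permutation p = 0.98). Other probe sets above the low-signal level gave 0.285 for Idi1, 0.22 for Mvd and 0.085 for Mvk. Those of Ggps1 gave -0.05, 0.09 and 0.03.

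From squalene onward, Fdft1 encodes squalene synthase, the first enzyme committed to sterols. Its Tg2576 levels ran from 10.45 through a median of 10.85 to 11.29, and its wild-type levels from 10.34 through 10.56 to 10.72. In 6 of 8 Tg2576 arrays the level was above every wild-type array, and the difference was 0.34 ± 0.09 (SE; exact permutation p = 0.00482). A second bright probe set of Fdft1 gave 0.43 ± 0.10 (SE), while a dim one at log2 6.27 gave 0.01. Sqle, the squalene epoxidase that catalyses a rate-limiting oxygen-dependent step, had Tg2576 levels of 9.82, 10.40 and 10.58 (lowest, median, highest) and wild-type levels of 9.66, 9.99 and 10.32. Of its Tg2576 arrays 5 lay above all wild-type arrays, and replicate 6 lay apart from the other 7 at the low end. The difference was 0.35 ± 0.09 (SE; exact permutation p = 0.00963).

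Msmo1 and Nsdhl act in turn on the methyl groups at carbon 4 of lanosterol-derived sterols. Msmo1, the oxidase, ran from 10.53 through 10.95 to 11.15 in Tg2576 mice and from 10.08 through 10.53 to 10.90 in wild-type mice. Its difference was 0.35 ± 0.09 (SE; exact permutation p = 0.00839), with 5 of 8 Tg2576 arrays above the wild-type range. Nsdhl, the dehydrogenase, ran from 9.44 through 9.80 to 10.03 in Tg2576 mice and from 9.33 through 9.46 to 9.91 in wild-type mice. It differed by 0.27 ± 0.08 (SE; exact permutation p = 0.0165), but only 2 of 8 Tg2576 arrays lay above the highest wild-type array. Tm7sf2, a sterol reductase, differed by 0.18 ± 0.08 (SE; exact permutation p = 0.0713), and its limma p was under 0.05 in 9 of 16 fits with 1 array left out.

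Hsd17b7 (0.20), Sc5d (0.19), Dhcr7 (0.14), Cyp51 (0.12), Ebp (0.10) and Lss (0.09) were the remaining enzymes of this arm by log2 difference, with exact permutation p from 0.146 to 0.374. Lss, the lanosterol synthase, was read by 2 probe sets above the low-signal level that disagreed. The one used because it was brighter over all arrays gave 0.09 ± 0.07 (SE), and the other gave 0.29 ± 0.07 (SE, in a fit of all probe sets). Other probe sets above that level gave 0.355 for Cyp51, 0.21 and 0.145 for Hsd17b7, and 0.03 and 0.145 for Sc5d.

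Among regulators and carriers, Insig1 stood out, the endoplasmic reticulum protein that retains SREBP and is itself switched on by it. Its Tg2576 levels were 9.14, 9.37 and 9.61 (lowest, median, highest) and its wild-type levels 8.63, 9.13 and 9.42, and all 8 Tg2576 arrays lay above the wild-type mean. The difference was 0.30 ± 0.09 (SE; exact permutation p = 0.00497). Stard4, a carrier that moves sterol between membranes, ran from 8.78 through 9.19 to 9.66 in Tg2576 mice and from 8.48 through 8.79 to 9.10 in wild-type mice. It differed by 0.35 ± 0.11 (SE; exact permutation p = 0.0169), and its 2 other probe sets gave 0.39 and 0.36. The transcripts of the SREBP factors themselves differed less, Srebf2 by 0.07 ± 0.07 and Srebf1 by -0.04 ± 0.07 (SE). Scap (0.06), Insig2 (0.03), Mylip (0.05), which marks lipoprotein receptors for breakdown, Npc1 (0.03), Npc2 (-0.04) and Vldlr (-0.03) had exact permutation p from 0.268 to 0.89.

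The sterol pattern followed single arrays and array properties in part. The median over the 28 genes was 0.10 without Tg2576 replicate 2 and also 0.10 without wild-type replicate 8. With 1 array left out at a time, 23 to 25 of the 28 genes stayed above 0 and 8 to 10 were higher with p under 0.05. With the signal range of each array as a covariate, 22 were above 0 with a median of 0.09. With arrays weighted by their estimated quality, 19 were above 0 with a median of 0.05, and 8 still were higher with p under 0.05. The median was 0.08 in replicate numbers 1 to 4 and 0.20 in numbers 5 to 8. The part of signal range in the difference was not tested beyond these values.

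The sterol genes were set beside the same genotypes under vehicle. No array is shared by the comparisons under drug and under vehicle, but both take the spread of a gene from the same fit. Under vehicle 25 of the 28 lay above 0, as 67.6% of all genes did, 13 were higher with an unadjusted p under 0.05 against 8.82% of all genes, and the median was 0.17. The difference between treatments was tested gene by gene as an interaction. Of the 28, 0 had an unadjusted interaction p under 0.05 by limma, against 3.31% of all genes. Hsd17b7 lay at 0.20 under the drug and 0.38 under vehicle, Sc5d at 0.19 and 0.05, and Srebf2 at 0.07 and 0.19. For Fdft1 the difference was 0.34 under the drug and 0.40 under vehicle, with an interval for the drug's change of it from -0.31 to 0.19 (95%). For Hmgcs1 it was 0.26 and 0.26, with an interval from -0.22 to 0.22. For Fdps the interval ran from -0.34 to 0.32 and for Stard4 from -0.37 to 0.25, so these data bound a drug effect on the difference only loosely.

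**Figure D2:**
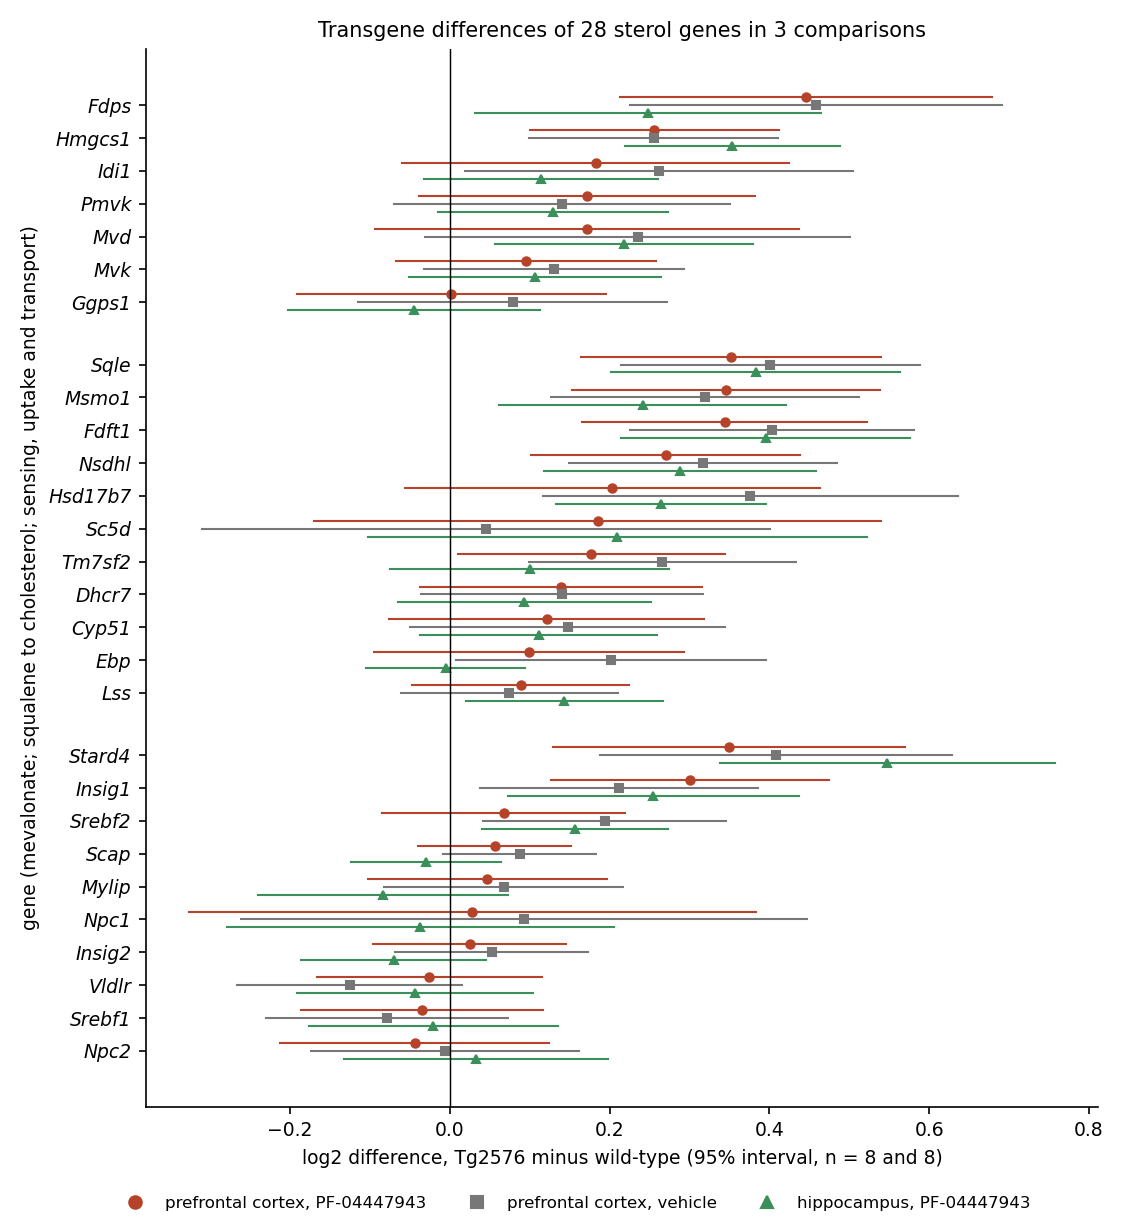
Log2 difference between Tg2576 and wild-type mice for 28 sterol genes, with 95% intervals from limma, in prefrontal cortex under PF-04447943 (circles), prefrontal cortex under vehicle (squares) and hippocampus under PF-04447943 (triangles), 8 arrays per genotype in each. In prefrontal cortex 25 of the 28 genes lie above 0 under either treatment, and in hippocampus 20 do.

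In hippocampus under the drug, which may come from the same mice and so is no independent group, 20 of the 28 lay above 0, as 50.9% of all genes did, and 12 were higher with an unadjusted p under 0.05 against 2.22% of all genes, with a median of 0.12. Stard4 (0.55 ± 0.10, SE) and Hmgcs1 (0.35 ± 0.07, SE) had the smallest adjusted p there, 0.0528. Tested directly in a fit that took all arrays as independent, 0 of the 28 differed between regions with an unadjusted p under 0.05, against 3.2% of all genes. Fdps was 0.45 in prefrontal cortex and 0.25 in hippocampus, a regional difference of 0.20 ± 0.16 (SE).

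Genes that carry cholesterol out of cells or store it did not share the direction of the synthesis genes. Of 8 tested, 2 lay above 0 and the median was -0.02. Abcg1, a transporter that loads cholesterol onto lipoproteins, lay at 0.18 ± 0.08 (SE; exact permutation p = 0.0421) under the drug and at -0.08 ± 0.08 under vehicle (limma interaction 0.26 ± 0.11, adjusted p = 1). Its second probe set above the low-signal level gave -0.05 ± 0.07 (SE), and its limma p was under 0.05 in 10 of 16 fits with 1 array left out. Apoe differed by 0.04 ± 0.07 and Lcat by -0.13 ± 0.12 (SE). Fatty acid synthesis and desaturation, partly under SREBP control, had 5 of 12 genes above 0, none with p under 0.05 and a median of -0.02. In that list Fads2, a desaturase of polyunsaturated fatty acids, lay at 0.20 ± 0.10 (exact permutation p = 0.0664), Acly at 0.11 ± 0.07 and Scd1, the stearoyl-CoA desaturase, at -0.18 ± 0.095 (SE; exact permutation p = 0.0107).

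Markers of astrocytes and of oligodendrocyte precursors lay mostly below 0. Astrocytes clear glutamate, buffer potassium and hand lipids and thyroid hormone to neurons. Of 13 astrocyte markers, 11 lay below 0, as 38.4% of all genes did, and 4 were lower with p under 0.05 (30.8%) against 0.998% of all genes, with a median of -0.12 (all genes 0.02). The 4 were Dio2, S100b, Slc1a3 and Slc4a4, the last named after its value was seen (-0.19 ± 0.08, SE). Leaving out 1 array at a time gave 2 to 6 such genes. There were 2 without Tg2576 replicate 1, 5, 6 or 8 or wild-type replicate 1, 6 or 7, and 6 without wild-type replicate 8. The count was 8 with array weights, 7 with signal range as a covariate, 3 with the 3 prime minus 5 prime difference as a covariate, and 2 with the mean of probe sets or median centring. It was also 2 in numbers 1 to 4 only and in numbers 5 to 8 only. The median was -0.07 with the 3 prime minus 5 prime covariate.

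Dio2 encodes the deiodinase that turns thyroxine into active hormone, in brain mainly within astrocytes. Its log2 level was 8.74 at the lowest, 9.545 at the median and 10.11 at the highest in Tg2576 mice, and 9.57, 9.95 and 10.50 in wild-type mice. Of the Tg2576 arrays 4 lay below the lowest wild-type array and 1 above the wild-type mean. The difference was -0.52 ± 0.17 (SE; exact permutation p = 0.0151), and its 2 other probe sets gave -0.41 and -0.22. Under vehicle Dio2 lay at -0.30 ± 0.17 and in hippocampus under the drug at -0.44 ± 0.10 (SE). S100b, a calcium-binding protein of astrocytes, differed by -0.16 ± 0.07 (exact permutation p = 0.0389), with no Tg2576 array above the wild-type mean. Slc1a3, a glutamate transporter, differed by -0.13 ± 0.06 (SE; exact permutation p = 0.0154). With 1 array left out, the limma p was under 0.05 in 11 of 16 fits for S100b and in 9 of 16 for Slc1a3. Gfap, also named after its value was seen, was 1 of the 2 markers above 0, at 0.44 ± 0.26 (SE).

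Ntsr2, Gpr37l1 and Htra1 are in no marker list used here and were named by their p or by the lack of overlap. Ntsr2, a neurotensin receptor found on astrocytes, was the only one of 12932 genes (0.00773%) whose groups did not overlap in the lower direction, and 0 did so in the higher direction. With so many genes and 8 arrays per genotype, counts this small are no more than chance gives. Its levels ran from 10.89 through 11.01 to 11.11 in Tg2576 mice and from 11.12 through 11.16 to 11.20 in wild-type mice. The difference was -0.15 ± 0.06 (SE), with no permutation p given because the lack of overlap that chose the gene fixes it, and under vehicle it was 0.03 ± 0.06 (SE; limma interaction -0.18 ± 0.09, adjusted p = 1). Gpr37l1, a receptor of astrocytes, ran from 11.02 through 11.10 to 11.19 in Tg2576 mice and from 11.12 through 11.29 to 11.40 in wild-type mice. It differed by -0.19 ± 0.06 (SE; exact permutation p = 0.000932), and by -0.14 ± 0.06 under vehicle. Htra1, a secreted protease, had 7 of 8 Tg2576 arrays below the lowest wild-type array of 11.45, but Tg2576 replicate 2 lay at 11.66, above all wild-type arrays. Its difference was -0.25 ± 0.08 (SE; exact permutation p = 0.00295).

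Of 9 markers of oligodendrocyte precursors 7 lay below 0, as 38.4% of all genes did. Olig1 and Bcas1 (22.2%) were lower with p under 0.05, against 0.998% of all genes, and the median was -0.15. The median was -0.06 with the mean of probe sets and -0.09 with the 3 prime minus 5 prime difference as a covariate. The count was 4 with array weights or with signal range as a covariate and 0 in numbers 1 to 4 only. Olig1, a transcription factor of the lineage, ran from 10.99 through 11.11 to 11.39 in Tg2576 mice and from 11.24 through 11.38 to 11.51 in wild-type mice, so 5 of 8 Tg2576 arrays lay below every wild-type array. Its difference was -0.22 ± 0.08 (SE; exact permutation p = 0.00622). Bcas1, a marker of young oligodendrocytes, differed by -0.24 ± 0.12 (SE; exact permutation p = 0.0918), and its limma p was under 0.05 in 6 of 16 fits with 1 array left out. Matn4 differed by -0.225 ± 0.137 (SE). Further precursor markers, named after their values were seen, were Pdgfra at -0.15 ± 0.10 and Gpr17 at -0.04 ± 0.13 (SE). The 2 markers above 0 were Cspg4 at 0.02 ± 0.06 and Tmem100 at 0.06 ± 0.16 (SE). Of 12 markers of mature oligodendrocytes and myelin, 10 lay below 0 with none at p under 0.05 and a median of -0.07. Cnp lay at -0.10 ± 0.11, Opalin at -0.11 ± 0.12 and Mobp at -0.11 ± 0.16 (SE).

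Under vehicle the astrocyte median was -0.11 with 3 markers lower at p under 0.05, where 3.27% of all genes were, and the precursor median was -0.13 with 2. No gene of either list had an interaction p under 0.05. The precursor medians with 1 array left out ran from -0.17 to -0.10, with 1 to 3 genes at p under 0.05 in place of 2. It was 1 without Tg2576 replicate 1, 4, 5, 6 or 8 or wild-type replicate 2, 3, 5 or 7, and 3 without Tg2576 replicate 7 or wild-type replicate 6. Cortical excitatory neuron markers had a median of 0.13 with 7 of 11 above 0, a share near the 61.6% of all genes, and none at p under 0.05. Fezf2 (0.33 ± 0.20), Foxp2 (0.41 ± 0.26) and Tle4 (0.17 ± 0.11, SE) had the smallest p of the list, while Rorb (-0.29 ± 0.23) and Cux1 (-0.145 ± 0.104, SE), added after their values were seen, lay below 0. Inhibitory neuron markers had a median of 0.02, and Htr3a, a serotonin receptor of a class of interneurons, was higher by 0.22 ± 0.09 (SE; exact permutation p = 0.0294). Striatal neuron markers had a median of 0.53 with none at p under 0.05, Drd1 at 0.68 ± 0.55 and Ppp1r1b at 0.46 ± 0.40 (SE). With the striatal minus cortical marker level of each array as a covariate, the sterol median was 0.165, the astrocyte median -0.11 and the precursor median -0.12.

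**Figure D3:**
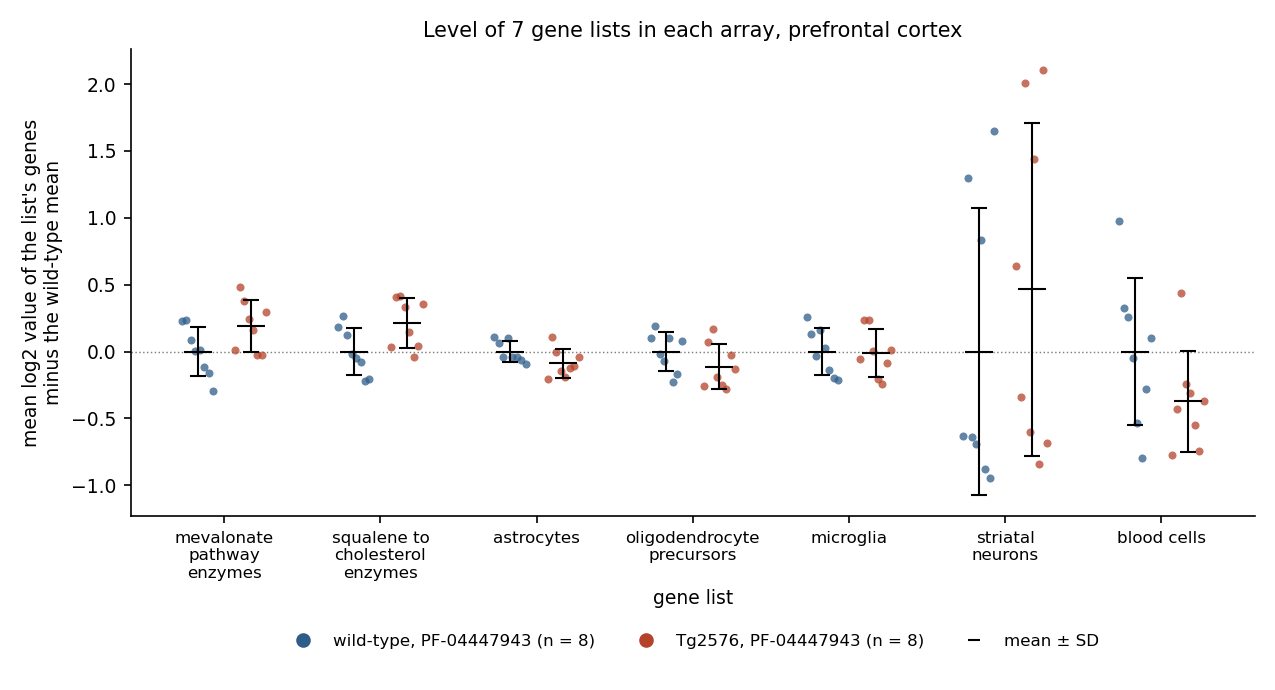
Mean log2 value of the genes of 7 lists in each of the 16 arrays, minus the mean of the wild-type arrays, with means and SD in black (n = 8 per genotype). Groups overlap for every list; the striatal neuron list spreads from -0.95 to 2.10 over the arrays, while the astrocyte list stays between -0.205 and 0.11.

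Outside the sterol and glial genes, Zfp189, a zinc finger transcription factor, had the smallest p of all. Its Tg2576 levels were 6.49, 6.83 and 7.08 (lowest, median, highest) and its wild-type levels 6.17, 6.50 and 6.66, and 7 of 8 Tg2576 arrays lay above every wild-type array. The difference was 0.35 ± 0.09 (SE; exact permutation p = 0.00202). Under vehicle it was 0.03 ± 0.09 (limma interaction 0.32 ± 0.13, adjusted p = 1) and in hippocampus under the drug -0.33. Sp3, a factor that binds GC boxes, ran from 8.715 through 8.83 to 8.95 in Tg2576 mice and from 8.54 through 8.66 to 8.76 in wild-type mice, again with 7 of 8 above the wild-type range. It differed by 0.17 ± 0.04 (SE; exact permutation p = 0.000622), against -0.02 ± 0.04 under vehicle (limma interaction 0.19 ± 0.06, adjusted p = 1). For any gene named by its p or lack of overlap under the drug, a smaller difference under vehicle follows in part from that choice. The interaction reuses the arrays that chose the gene, so it is no separate test of it.

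Plk2, a kinase induced by neuronal activity, was higher by 0.22 ± 0.06 (SE; exact permutation p = 0.00559), with all 8 Tg2576 arrays above the wild-type mean. Orai2, a store-operated calcium channel, was higher by 0.22 ± 0.06 (SE; exact permutation p = 0.00575), and its second probe set gave 0.25. Neither differed by more than 0.04 under vehicle. Ccnjl was higher by 0.44 ± 0.11 (SE; exact permutation p = 0.0014), but its second probe set above the low-signal level gave -0.08. Myl1, a myosin light chain of fast muscle, was at log2 6.54 in the median Tg2576 array and 5.71 in the median wild-type array, the latter below the low-signal level of 5.91, so no fold is given.

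On the lower side, Hrh2, the histamine H2 receptor, had the smallest p. It ran from 6.38 through 6.70 to 6.92 in Tg2576 mice and from 6.85 through 6.94 to 7.26 in wild-type mice, with 6 of 8 Tg2576 arrays below every wild-type array. The difference was -0.30 ± 0.08 (SE; exact permutation p = 0.00155), and it lay at -0.14 ± 0.08 under vehicle and at 0.14 in hippocampus. Fndc5, the precursor of the hormone irisin, lay at -0.29 ± 0.09 under the drug (SE; exact permutation p = 0.00342) and at -0.01 ± 0.09 under vehicle (limma interaction -0.28 ± 0.12, adjusted p = 1), and its second probe set gave -0.26. Apln, the peptide apelin, lay at -0.45 ± 0.15 (SE; exact permutation p = 0.00761), with no Tg2576 array above the wild-type mean, at -0.27 under vehicle and at -0.43 in hippocampus. Igfbp2, which binds insulin-like growth factors and is also a meningeal marker, lay at -0.43 ± 0.13, Egln1, the oxygen-sensing prolyl hydroxylase, at -0.19 ± 0.06, Hspb3, a small heat shock protein, at -0.68 ± 0.23, and Chadl at -0.11 ± 0.04 (SE).

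**Figure D4:**
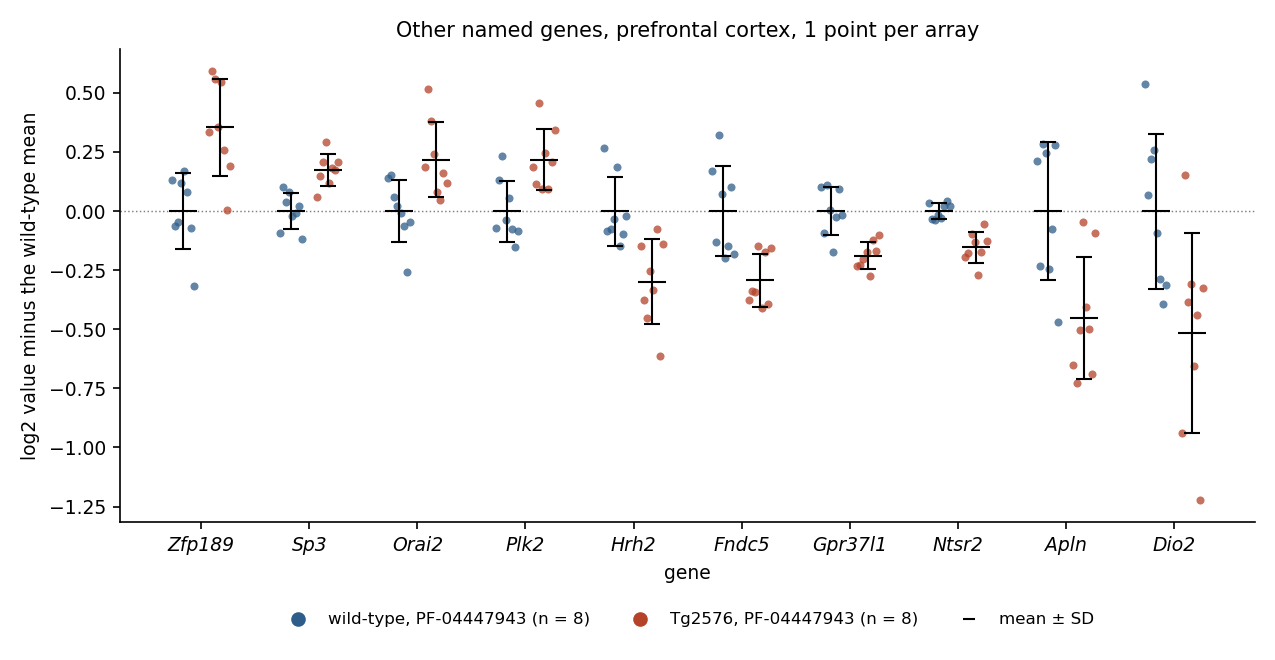
Log2 values of 10 further named genes, each minus the mean of the wild-type arrays, in prefrontal cortex under PF-04447943. Points are arrays of single mice, 8 per genotype, and black marks are means with SD; 7 of 8 Tg2576 arrays lie above the wild-type range for Zfp189 and Sp3, and all 8 lie below it for Ntsr2.

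The target of the drug and the genes of the transgene were looked at next. Pde9a differed by 0.03 ± 0.07 between genotypes (SE; exact permutation p = 0.674), at log2 7.62 in the median array of either group. The brightest App probe set differed by 0.001 ± 0.039 and the next by 0.011 ± 0.037 (SE), and the 2 Prnp probe sets by 0.01 and 0.06. These probe sets were designed on mouse genes, so they do not report whether the human transgene was transcribed. Of 20 tested genes of amyloid precursor processing and clearance, 13 lay above 0 with none at p under 0.05 and a median of 0.02. Bace1, the beta-secretase, lay at 0.15 ± 0.09, Aph1a, a subunit of gamma-secretase, at -0.14 ± 0.08 and Adam10, the main alpha-secretase, at 0.10 ± 0.07 (SE).

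Cyclic GMP is made by guanylyl cyclases, acts through protein kinase G and is removed by several phosphodiesterases besides PDE9A. Of 15 tested genes of its synthesis, breakdown and kinases, 10 lay above 0, where 61.6% of all genes did, 3 (20%) were higher with p under 0.05 against 2.68% of all genes, and the median was 0.04. With 1 array left out, Pde2a and Pde1a each had a limma p under 0.05 in 12 of 16 fits. Without Tg2576 replicate 2 neither did. Gucy1b1, the beta subunit of the nitric oxide-sensitive cyclase, ran from 12.02 through 12.10 to 12.21 in Tg2576 mice and from 11.92 through 11.98 to 12.07 in wild-type mice. It differed by 0.12 ± 0.04 (SE; exact permutation p = 0.00357), with all 8 Tg2576 arrays above the wild-type mean, and by -0.01 ± 0.04 under vehicle (limma interaction 0.12 ± 0.06, adjusted p = 1). Pde2a, a phosphodiesterase that cyclic GMP itself activates, differed by 0.20 ± 0.09 (SE; exact permutation p = 0.0819). Pde1a, a calcium- and calmodulin-dependent one, differed by 0.24 ± 0.11 (SE; exact permutation p = 0.0356). Under vehicle the list had a median of 0.06 and none higher at p under 0.05.

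Microglial and immune lists were set beside their values under vehicle. The microglia median was 0.03 under the drug and 0.17 under vehicle, with 9 and 12 of 13 markers above 0. Siglech, a microglial surface lectin, lay at -0.10 ± 0.10 under the drug and 0.21 ± 0.10 under vehicle (SE; limma interaction -0.31 ± 0.14, adjusted p = 1), while Csf1r, the growth factor receptor of microglia, lay at 0.05 and 0.10. The 8 tested genes of amyloid-associated microglial activation had a median of -0.06 and none at p under 0.05. Of 11 interferon and antigen presentation genes 9 lay below 0, as 38.4% of all genes did, with a median of -0.08 (0.004 under vehicle). The mean log2 value of this list was highest in wild-type replicate 3, at 0.56 above the wild-type mean. In Tg2576 arrays it ran from -0.355 to 0.03. Psmb9 lay at -0.32 ± 0.18 (SE) with all arrays and at -0.14 without wild-type replicate 3. B2m, the light chain of class I molecules, ran from 11.16 through 11.47 to 11.64 in Tg2576 mice and from 11.43 through 11.57 to 12.46 in wild-type mice. Without wild-type replicate 3, the array at 12.46, the difference was -0.15 and its limma p no longer under 0.05, and the latter was so in 7 of 16 fits with 1 array left out. With all arrays B2m lay at -0.26 ± 0.12 under the drug (exact permutation p = 0.0451) and at 0.11 ± 0.12 under vehicle (SE; limma interaction -0.36 ± 0.17, adjusted p = 1).

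The 4 tested blood cell genes all lay below 0 under the drug with a median of -0.36, and all above 0 under vehicle with a median of 0.49. S100a8 and S100a9, which neutrophils express strongly, lay at -0.66 ± 0.44 and -0.53 ± 0.40 under the drug and at 0.57 and 0.69 under vehicle (SE; limma interaction -1.24 ± 0.62 and -1.23 ± 0.56, adjusted p = 1 for both). Their wild-type levels under the drug were highest in replicate 1, at 7.76 and 7.63, against medians of 6.26 and 6.10. Ptprc, the pan-leukocyte antigen CD45, lay at -0.18 ± 0.18 and 0.41 ± 0.18 (SE; limma interaction -0.59 ± 0.26, adjusted p = 1). The part of blood left in the tissue in these immune values was not tested.

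Whether the drug altered the transgene difference was tested for every gene. An unadjusted interaction p under 0.05 was found for 428 genes (3.31%), where chance gives 646.6. By limma 0 passed after adjustment, and the adjusted p of each gene named here was 1. The 4 genes with the smallest p had opposite signs under drug and vehicle, which a ranking by the gap between treatments favours. Mrpl52, a mitochondrial ribosomal protein, lay at 0.10 under the drug and -0.22 under vehicle, an interaction of 0.32 ± 0.07 (SE). Grik3, a kainate receptor subunit, lay at 0.32 and -0.31, an interaction of 0.63 ± 0.16 (SE), and 7 of 8 Tg2576 arrays under the drug lay above the wild-type range while replicate 2 lay low at 8.82. Akap13 lay at -0.09 and 0.20 and E130317F20Rik at 0.10 and -0.22.

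Over all genes, differences under drug and vehicle shared their sign in 64.1% of 12932. Of the 347 genes higher under the drug with p under 0.05, 281 (81%) also lay above 0 under vehicle, where 67.6% of all genes did, and 64 (18.4%) were higher with p under 0.05 there, against 8.82% of all genes. Of the 129 lower genes, 76 (58.9%) lay below 0 under vehicle where 32.4% of all genes did, and 13 (10.1%) were lower with p under 0.05, against 3.27%. Both comparisons take the spread of a gene from the same fit. Genes with a small spread can pass in both, so part of the excess at p under 0.05 may follow from the fit. Under vehicle an unadjusted p under 0.05 by limma was found for 1563 genes (12.1%), of which 0 passed after adjustment, with a smallest adjusted p of 0.119. The number of genes past an unadjusted threshold was thus 3.68% under the drug and 12.1% under vehicle, a difference in counts that was not itself tested.

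Between regions under the drug, 415 genes (3.2%) had an unadjusted p under 0.05 for a different transgene effect, and 0 passed after adjustment by limma (smallest p for Sirt1, adjusted p = 0.997). Sirt1, a protein deacetylase, lay at 0.13 in prefrontal cortex and -0.22 in hippocampus, a regional difference of 0.35 ± 0.09 (SE). Hrh2 (-0.44 ± 0.12), Sp3 (0.25 ± 0.07) and the deubiquitinase Usp16 (0.21 ± 0.06, SE) followed. In hippocampus under the drug 648 genes (5%) had an unadjusted p under 0.05, and 0 passed.

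The remaining lists were as follows. Activity-regulated early genes and CREB targets had a median of 0.02 with 13 of 23 above 0, and Jun, a subunit of the AP-1 factor, was higher by 0.27 ± 0.12 (SE; exact permutation p = 0.0536) and by 0.37 under vehicle, and its limma p was under 0.05 in 10 of 16 fits with 1 array left out. Excitatory synapse genes had a median of -0.002. In that list the scaffold gene Shank3 lay at -0.17 ± 0.08 under the drug (exact permutation p = 0.103) and at 0.12 ± 0.08 under vehicle (SE; limma interaction -0.29 ± 0.12, adjusted p = 1). With 1 array left out, the limma p of Shank3 was under 0.05 in 8 of 16 fits. Vesicle release genes had a median of -0.03 with 9 of 12 below 0. Chaperones had a median of -0.01, and Calr, a calcium-binding chaperone of the endoplasmic reticulum, lay at -0.15 ± 0.06 (SE; exact permutation p = 0.0179), with 5 of 8 Tg2576 arrays below every wild-type array.

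Medians were -0.002 for circadian clock genes, 0.01 for glucocorticoid response genes, -0.04 for inflammatory signalling genes, 0.02 for cytosolic ribosomal proteins and 0.02 for oxidative phosphorylation subunits, with none at p under 0.05 in these lists. Endothelium and pericytes had a median of -0.03, olfactory bulb neurons -0.04, meninges 0.06, choroid plexus 0.13 over 3 genes, and dentate and hippocampal neurons 0.10 over 4 genes. In the last list C1ql2 lay at 0.23 ± 0.12 under the drug and at -0.29 ± 0.12 under vehicle (SE; limma interaction 0.52 ± 0.16, adjusted p = 1). Its median level under the drug was log2 6.085 in Tg2576 and 5.825 in wild-type arrays, the latter below the low-signal level of 5.91. These differences were thus read close to that level.

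**Figure D5:**
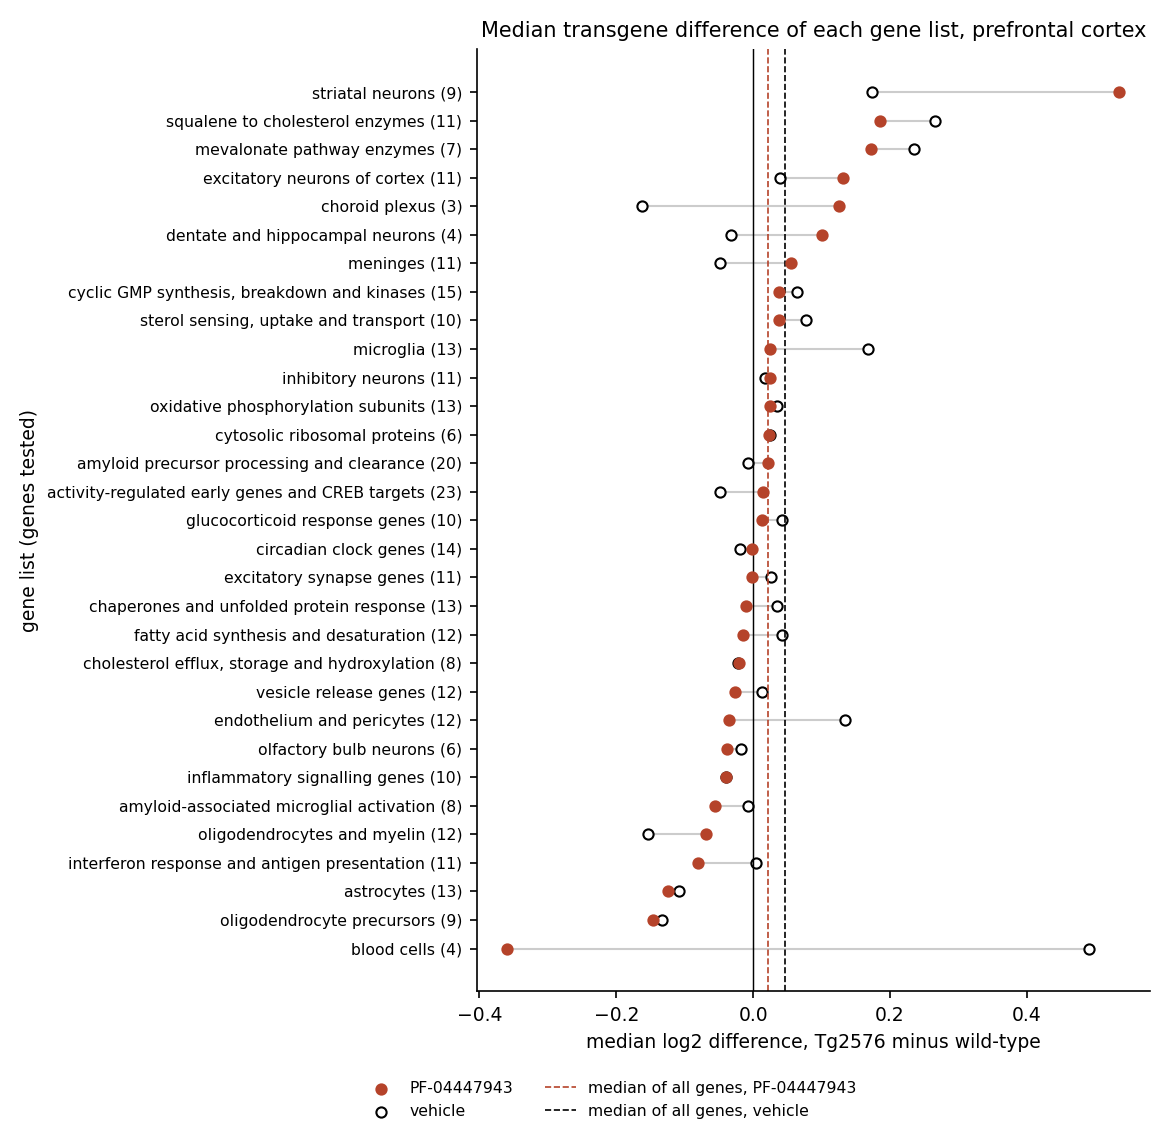
Median log2 difference between Tg2576 and wild-type prefrontal cortex for 31 gene lists, under PF-04447943 (filled) and under vehicle (open), with the number of genes tested in brackets; dashed lines mark the median of all genes. Both sterol enzyme lists lie above and the astrocyte and precursor lists below the dashed lines under either treatment, and the blood cell list changes sign.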

How the data were processed

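RNA from 64 dissected brain samples was hybridised to Affymetrix mouse expression arrays. The deposited intensity values were made by the authors using RMA, according to the submitters' processing notes. Which software ran it is not given in the sources used here. The values lie on a linear scale, and log2 was taken here. The number of arrays, 8 per group, limits the precision.

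Of 45101 probe sets, 34945 had 1 gene symbol in the platform annotation, 932 several and 9160 none, beside 64 control probe sets. For each of 18193 genes the probe set brightest on average across the series was used. Genes below the 40th percentile of probe sets in prefrontal cortex (log2 5.91) were left out.

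The 4 groups of each region entered 1 limma fit (limma 3.58.1, R 4.3.3), with 8 groups for the regional contrast. Two-sided p-values were adjusted by Benjamini-Hochberg across every gene in the fit, with 0.05 as threshold. The code was tested on simulated data. Single genes and array measures were compared by two-sided exact permutation of the 16 arrays. Figures were drawn in matplotlib 3.10.9 under Python 3.11.15.

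Named genes were the 10 higher and 10 lower genes with the smallest p, all tested sterol genes, up to 3 members of every other list by p, Pde9a, App and Prnp, the 4 genes with the smallest p of the interaction and of the regional contrast, and genes whose groups did not overlap. Any other gene was picked with its value in view. The comparison, the 31 lists (17 of pathways, 14 of cell types) and the alternatives were chosen with earlier results of these data known. The alternatives were other filters, probe set rules, scalings, priors, array weights, covariates, blocks, subsets of the arrays and each array left out in turn. Promoters came from a RefSeq table (GRCm38.p6).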

Additional observations from a re-analysis of the deposited data

Results flagged for a closer look

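Among 64 groups of 8 arrays, those of 29 leading genes and 3 array measures in either genotype, 2 held an array far from the rest by a gap test for which chance gives about 3.2. Sqle had its lowest Tg2576 value in replicate 6, at log2 9.82, with the next array at 10.25, a gap of 0.567 of the group's range. Without that array the Sqle difference was 0.43. Htra1 had its highest Tg2576 value in replicate 2, at log2 11.66, with the next array at 11.36, a gap of 0.631 of the range. Without that array the Htra1 difference was -0.30. With any 1 array left out, both differences kept their sign and an unadjusted limma p under 0.05.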

How the results depend on the processing

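The count of genes with an adjusted p under 0.05 between Tg2576 and wild-type prefrontal cortex under PF-04447943 was 0 in every alternative but a pair. It was 1 with array weights (Htra1, -0.32, adjusted p = 0.0308) and 2 with signal range as a covariate (Dio2, -0.62, adjusted p = 0.0185; Paqr8, -0.28, adjusted p = 0.0458). It ran from 0 to 0 with each array left out. Under vehicle the count of 0 became 1 with the mean of probe sets, 3 with quantile normalization, 29 with array weights, 11 with signal range as a covariate, and 1 in replicate numbers 1 to 4 only. With the replicate number as a block it was 6 under vehicle and 0 under the drug, where 803 genes then had an unadjusted p under 0.05 in place of 476. With numbers 1 to 4 against 5 to 8 as a replicate block it was 17 under vehicle and 0 under the drug, with 789. Same-numbered arrays did not deviate together, with correlations from -0.47 to 0.42, 4 of 8 over 0.1 and 1 of 8 best with its own number, so the numbers were not taken to pair the mice. That check does not bear on a shared difference between numbers 1 to 4 and 5 to 8. The interaction and the regional contrast gave 0 in each alternative run for them. For the regional contrast these included group and number as 1 mouse, although the numbers matched the regions in only 2 of 8 Tg2576 mice under the drug. The correlation fitted within that block was -0.022. That fit was thus nearly the one without the block and cannot show what shared mice would change. The unadjusted count under the drug was 842 with every probe set tested, 1100 with array weights (423 higher, 677 lower) and 810 with signal range as a covariate (404 higher, 406 lower). Of 504 in numbers 1 to 4 only, 230 were higher. Among named genes with an unadjusted p under 0.05, the sign turned only for Usp16, at -0.057 with the mean of its probe sets.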

Other observations

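A group of 6 probe sets showed 2 separate levels over the mice, among them those of Rpgrip1, Mtmr7 and Prune2. Rpgrip1 was at its high level in 4 of 8 Tg2576 and 7 of 8 wild-type arrays of prefrontal cortex under PF-04447943, and Mtmr7 in 5 and 7. Mice of the same group thus differed at these probe sets, although the strain was given as an F1 hybrid. The cause, and its part in the genotype difference, was not tested. Over these 6 probe sets, prefrontal and hippocampal arrays with the same replicate number had the same pattern in 8 of 8 wild-type pairs under the drug, in 8 of 8 pairs of either vehicle group, and in 2 of 8 Tg2576 pairs under the drug.

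The signal range of the arrays was higher in replicate numbers 1 to 4 than in 5 to 8 in each group of prefrontal cortex. Under PF-04447943 it was 3.734 against 3.596 in Tg2576 mice and 3.724 against 3.505 in wild-type mice, and under vehicle 3.822 against 3.568 and 3.675 against 3.498.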
